A study of Mus musculus with 20 samples.

Results

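Clock, Arntl, Per1, Per2, Per3, Cry1, Cry2, Nr1d1, Nr1d2 and Dbp, 10 genes of the circadian clock, were followed library by library in blood stem and progenitor cells of Hopx knockout (KO) and Hopx wild-type (WT) mice. They were taken from the count matrix by matching each Ensembl identifier to its symbol, which found 10 of 10 genes among 45706 identifiers. All 10 also passed the filter on low values, which kept 17160 genes.

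In the mammalian clock, CLOCK and ARNTL (BMAL1) pair to switch on genes that carry E-box elements, among them the Per and Cry genes, whose proteins then repress that pair. A second loop runs through the Rev-erb receptors NR1D1 and NR1D2, which repress Arntl through ROR elements, while DBP activates genes with D-boxes, such as Per3. In mouse marrow, trafficking of stem and progenitor cells is known to follow the time of day.

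The 6 groups were KO MPP2, WT MPP2, KO MPP3, WT MPP3, KO LT-HSC and WT LT-HSC, with 3 libraries each except WT MPP3 and WT LT-HSC, which had 4. LT-HSC are long-term blood stem cells, and MPP2 and MPP3 are multipotent progenitors of type 2 and type 3. All 20 libraries came from bone marrow of C57BL/6 mice aged 8 weeks, sorted by flow cytometry, and KO libraries carried the Hopx knockout as the one labelled difference from WT. The labels give no hour of sacrifice, and they do not say how the knockout was made, which markers were sorted or whether libraries came from separate animals, so p-values measure the spread between these libraries. Each title carries a library number, and the numbers fall into 4 runs, 52 to 54, 81 to 88, 101 to 106 and 115 to 120; what a run shares is not stated.

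Reads in genes numbered 11163345 to 15189909 per library, and 14931 to 20831 genes had at least 1 read. Hopx, the gene knocked out, had reads in 0 of 9 KO libraries and in 10 of 11 WT libraries, with 349 reads in all; the exception was WT LT-HSC replicate 4, with 0 reads. The summed level of 7 LT-HSC markers was 1088 to 2295 normalized counts in MPP2 libraries and 667 to 1517 in MPP3 libraries, against 4035 to 7952 in LT-HSC libraries. That of 5 MPP3 markers was 2260 to 67353 in MPP2, 30976 to 133963 in MPP3 and 230 to 1222 in LT-HSC libraries. For 5 MPP2 markers it was 11043 to 71041 in MPP2, 6510 to 8696 in MPP3 and 3371 to 34612 in LT-HSC libraries. MPP2 libraries thus overlapped MPP3 on the MPP3 markers and LT-HSC on the MPP2 markers. The summed level of 7 mature neutrophil markers was 121 to 7930 in MPP2, 60.4 to 25622 in MPP3 and 56.2 to 25434 in LT-HSC libraries. KO MPP2 replicate 3 stood apart for the clock genes, as described with them, and had the fewest genes with a read.

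Per kilobase of exon, which is the scale on which genes can be compared, Cry1 stood highest with a mean over the 6 groups of 132 normalized counts per kilobase, and Clock lowest with 12.2. Between them came Dbp with 78.5, Nr1d2 with 69.0, Per3 and Per1 with 41.4 each, Arntl with 38.2, Cry2 with 37.9, Nr1d1 with 30.4 and Per2 with 16.2. The range of group means of each gene overlapped that of the next gene in this order, for example 73.0 to 176 for Cry1 and 33.3 to 106 for Dbp. Of the tested genes, 65.0% lay below Cry1 and 22.5% below Clock on this scale.

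**Figure D1:**
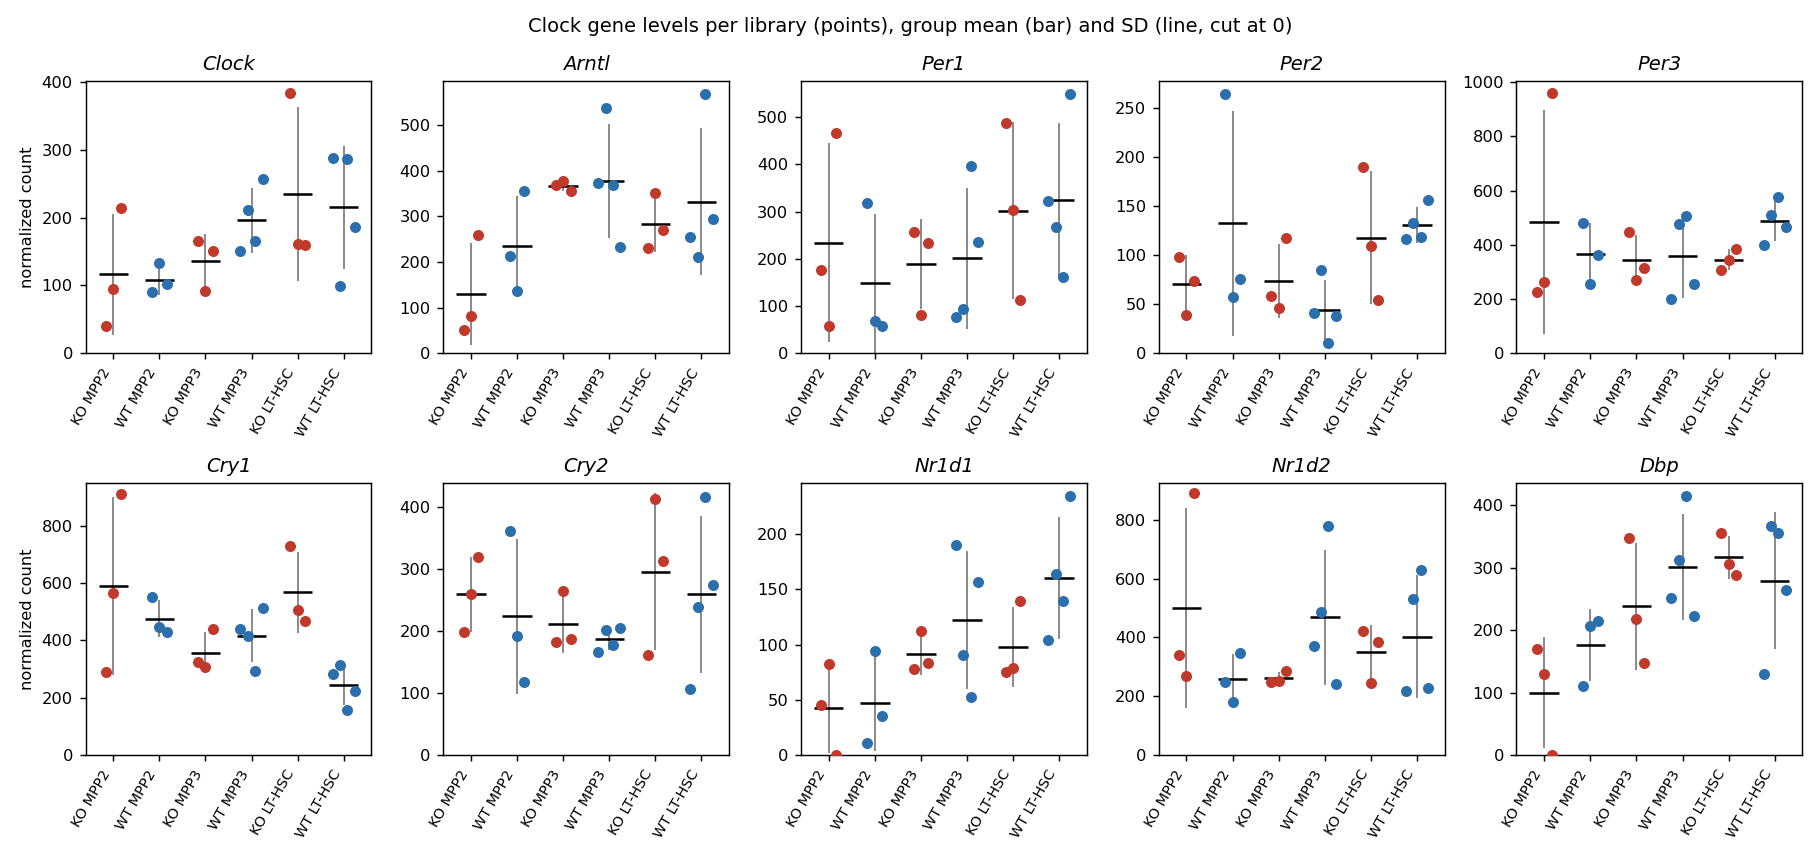
Each panel plots 1 clock gene, with the normalized count on the vertical axis and the 6 groups, KO left of WT, on the horizontal axis. Points are libraries (red KO, blue WT), bars are group means and grey lines are the SD. KO MPP2 holds a library at 0 for Nr1d1 and for Dbp and the highest library of Per3, Cry1 and Nr1d2.

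Within groups the genes differed widely in how steady they were. The SD of log2(value + 1) within groups was 0.44 for Cry1, 0.58 for Cry2, 0.59 for Per3, 0.65 for Arntl and Nr1d2, 0.67 for Clock, 0.87 for Per2, 1.11 for Per1, 1.52 for Nr1d1 and 1.65 for Dbp. Their median of 0.66 compares with 0.70 over 4311 genes in the same range of levels, so as a group the clock genes were about as variable between replicates as other genes. Nr1d1 and Dbp, the least steady, both had 0 reads in KO MPP2 replicate 3.

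The activator pair came first. Arntl (ENSMUSG00000055116, GRCm38 chromosome 7, 113207465 to 113314126, plus strand) had 50.5, 80.8 and 258 normalized counts in the 3 KO MPP2 libraries and 212, 136 and 354 in the 3 WT MPP2 libraries. It had 368, 377 and 355 in KO MPP3 and 372, 538, 368 and 234 in WT MPP3. It had 231, 351 and 270.5 in KO LT-HSC and 256, 211, 569 and 294 in WT LT-HSC. The MPP2 libraries thus held the 3 lowest values of the 20, and KO MPP3 was the tightest group, but the ranges of the 3 populations overlapped.

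The Arntl promoter is shown because Arntl alone of the 10 genes was called between populations and because its window holds a ROR element core, the kind of site through which NR1D1 and NR1D2 are known to act. The window runs from 250 bases before to 50 after a RefSeq gene start (GRCm38.p6, chr7:113207261-113207560, plus strand), and capitals mark the core TAGGTCA at bases 281 to 287.
Arntl: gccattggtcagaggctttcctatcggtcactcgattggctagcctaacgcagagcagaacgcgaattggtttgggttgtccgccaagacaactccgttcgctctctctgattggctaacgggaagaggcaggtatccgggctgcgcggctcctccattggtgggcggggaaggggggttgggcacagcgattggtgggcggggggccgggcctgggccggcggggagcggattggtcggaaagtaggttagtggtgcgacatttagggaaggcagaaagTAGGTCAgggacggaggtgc
That core, or its reverse TGACCTA, was present in 2.61% of 32851 promoter windows.

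Arntl was lower in MPP2 than in MPP3. Over both genotypes it averaged 182 ± 115 normalized counts in MPP2 (SD, n = 6), against 373 ± 88.5 in MPP3 (SD, n = 7). The log2 fold change was -1.29 with a standard error of 0.35, a fold of 0.41 with a 95% interval of -2.03 to -0.54 on the log2 scale and an adjusted p of 0.0358 (limma, Benjamini-Hochberg over 17160 genes). It was the 1 of 10 clock genes called there, beside 6.88% of all genes, or 4.64% counted as lower. At an unadjusted p under 0.05 there were 3, Arntl, Nr1d1 and Dbp, beside 20.5%. Between libraries of 1 run and 1 genotype it was lower in MPP2 in 5 of 5 comparisons, by log2 differences of -2.84 to -0.46. Such counts, here and below, reuse the libraries of the test and were not set against all genes, so they are descriptions.

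The call is a narrow one. It passed in 18 of 30 alternatives, with log2 fold changes of -1.62 to -0.97 and adjusted p of 0.00398 to 0.258, and edgeR did not make it (adjusted p = 0.0993). Leaving out any 1 of KO MPP2 replicates 1 and 2, WT MPP2 replicates 1 and 2, KO MPP3 replicates 1, 2 and 3 or WT MPP3 replicates 1 and 2 also ended it, with adjusted p of 0.0547 to 0.108. Whether fewer cells made Arntl RNA or each cell made less cannot be told apart in bulk RNA.

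**Figure D2:**
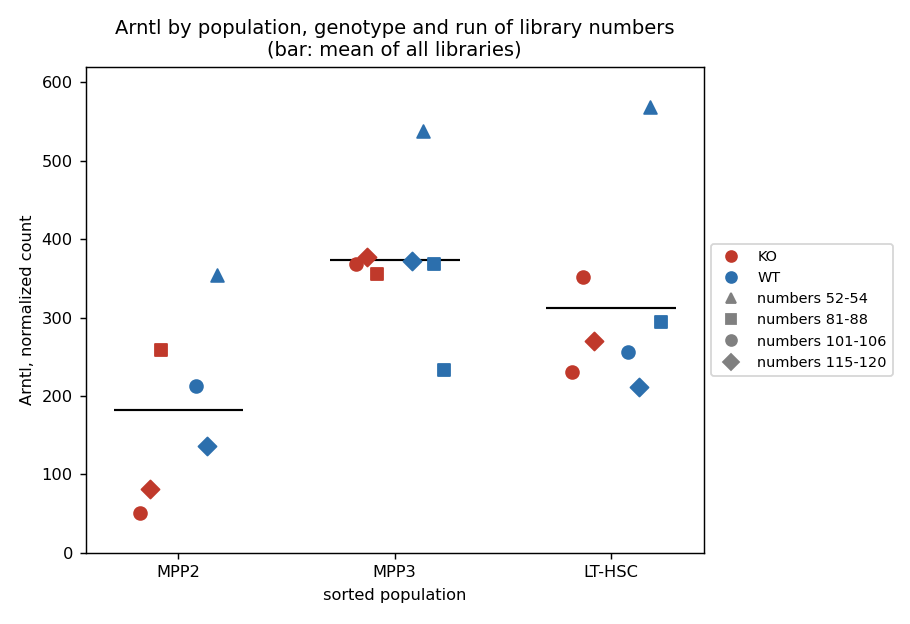
Arntl, in normalized counts on the vertical axis, is plotted for the 20 libraries by sorted population on the horizontal axis, with KO in red to the left and WT in blue to the right. Marker shapes give the run of library numbers and bars the mean of all libraries of a population, 182 in MPP2, 373 in MPP3 and 312 in LT-HSC. The libraries numbered 52 to 54 (triangles) are the highest of their populations.

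Arntl was also lower in MPP2 than in LT-HSC, where it averaged 312 ± 122 (SD, n = 7), by a log2 fold change of -0.98 (SE 0.35) that did not pass (limma adjusted p = 0.105). It passed with the run of library numbers as a covariate, with a log2 fold change of -1.05 (adjusted p = 0.0364). It passed too without KO MPP2 replicate 3, at -1.31 (adjusted p = 0.0179). Clock (ENSMUSG00000029238, chromosome 5, 76209868 to 76304792, minus strand), the partner of ARNTL, averaged 112 ± 58.0 in MPP2, 171 ± 51.6 in MPP3 and 224 ± 98.5 in LT-HSC. Its log2 fold change of -1.03 (SE 0.38) between MPP2 and LT-HSC did not pass either (adjusted p = 0.111), and did without KO MPP2 replicate 3, at -1.33 (adjusted p = 0.0341). Both activators therefore had their lowest population mean in MPP2.

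Among the Period genes, whose proteins repress CLOCK and ARNTL, Per1 (ENSMUSG00000020893, chromosome 11, 69095217 to 69109960, plus strand) split the libraries by their numbers rather than by genotype. It had 177, 57.7 and 467 normalized counts in KO MPP2 and 318, 69.0 and 57.9 in WT MPP2. It had 256, 80.3 and 233 in KO MPP3 and 77.7, 93.0, 396 and 236 in WT MPP3. It had 488, 303 and 113 in KO LT-HSC and 322, 267, 161 and 549 in WT LT-HSC. Each group had both high and low libraries, and in no population were KO and WT apart.

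Sorted by number, every library of 81 to 88 and 101 to 106 lay above every library of 52 to 54 and 115 to 120 of the same population. In MPP2 Per1 averaged 321 ± 145 in 81 to 88 and 101 to 106 and 61.6 ± 6.49 in 52 to 54 and 115 to 120 (SD, n = 3 each). In MPP3 the same averages were 280.3 ± 78.1 (n = 4) and 83.6 ± 8.19 (n = 3), and in LT-HSC 416 ± 122 (n = 4) and 181 ± 78.5 (n = 3). This pairing of runs was chosen on Per1 itself and is a description. No other clock gene showed it in either direction, while 40 of 17160 genes (0.233%) did in the same direction and 32 (0.186%) in the opposite one.

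**Figure D3:**
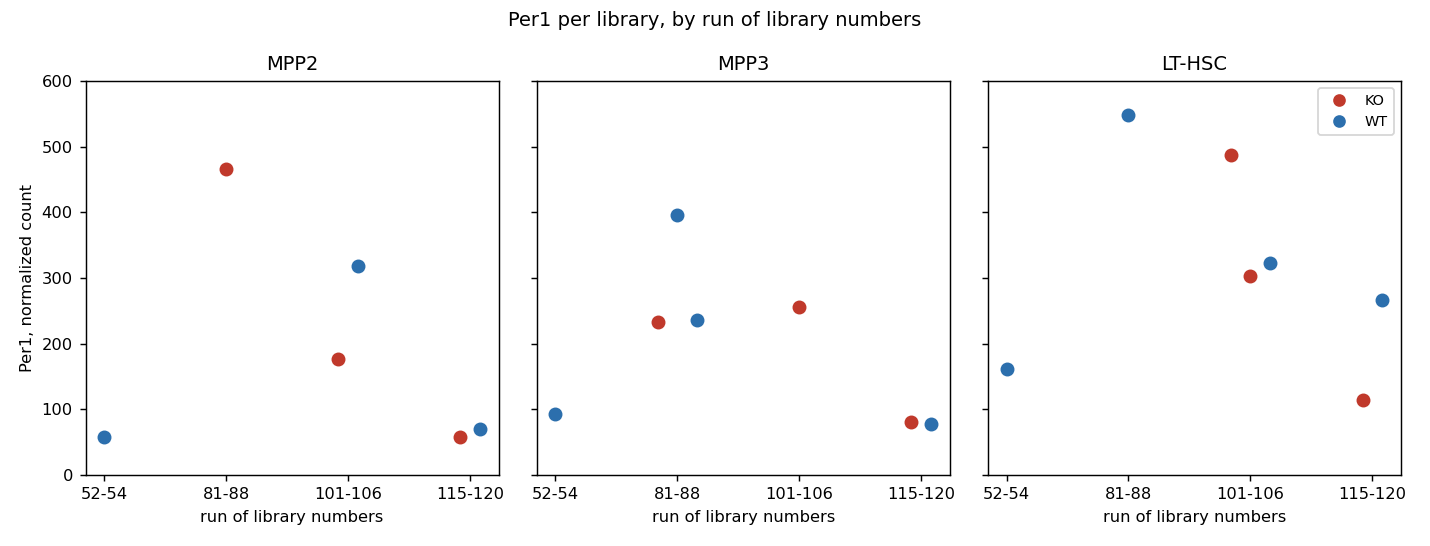
Per1, in normalized counts on the vertical axis, is plotted for every library by run of library numbers on the horizontal axis, in a panel for each population (red KO, blue WT). In each panel all points of 81 to 88 and 101 to 106 lie above all points of 52 to 54 and 115 to 120, for example at 177 and above against 69.0 and below in MPP2.

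A test of any difference between the 4 runs, in a fit that also held the 6 groups, was added after the split had been seen. Per1 passed it (limma F = 17.5, adjusted p = 0.00581), as the 1 clock gene of 10, beside 2.75% of all genes. It passed in 27 of 29 alternatives, with adjusted p of 3.57e-08 to 0.0878. The 2 in which it did not pass were edgeR on 18 libraries (adjusted p = 0.0578) and the fit without the libraries numbered 52 to 54 (adjusted p = 0.0878). Of the other clock genes, Arntl had the smallest p (F = 3.32, adjusted p = 0.266), and with Per1 made 2 of 10 at an unadjusted p under 0.05, beside 18.7% of all genes.

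Immediate early genes respond within minutes to signals and to handling. Of 15 tested, 9 passed the same test, beside 2.75% of all genes, among them Jund (F = 46.3, adjusted p = 7.60e-05), Klf2 (F = 37.0), Ier3 (F = 36.5) and Fos (F = 18.5), which passed in 27 to 29 of 29 alternatives. Without the libraries numbered 52 to 54 Ier3 passed, while Jund (F = 1.12), Fos (F = 3.31) and Klf2 (F = 20.3) did not, with adjusted p of 0.0845 to 0.749. Fos also did not pass without WT MPP3 replicate 2, which is 1 of them (adjusted p = 0.0535). The median F of the 15 was 13.7, beside 1.46 over all genes. Fos did not follow Per1, since its lowest library of each population was the one numbered 52 to 54, with 1688 normalized counts in MPP2, 797 in MPP3 and 2856 in LT-HSC, while the 2 LT-HSC libraries of 115 to 120 held its highest values, 19347 in KO replicate 3 and 25343 in WT replicate 2. Of 8 glucocorticoid targets, Fkbp5 passed (F = 13.3, adjusted p = 0.0166), and in 23 of 29 alternatives, but not without the libraries numbered 52 to 54 (F = 4.73, adjusted p = 0.490). In MPP2 the 8 targets summed to 5329 to 5917 normalized counts in the runs with high Per1, against 3198 to 4953 in the others. In MPP3 the same ranges overlapped, at 5890 to 8525 against 3728 to 6046. In LT-HSC they overlapped too, at 6720 to 11649 against 6945 to 8762. Tsc22d3 made up much of these sums, so they do not weigh the 8 genes alike. It averaged 2752 of a mean sum of 4582 in WT MPP2 and 7462 of 9637 in WT LT-HSC. The part of handling, hour or hormone in the Per1 split was not tested.

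The Per1 window with a match is shown because an E-box, CACGTG, is the element through which CLOCK and ARNTL are known to act on this gene. It lies at chr11:69098699-69098998 (RefSeq, GRCm38.p6, plus strand), and capitals mark the E-box at bases 85 to 90.
Per1: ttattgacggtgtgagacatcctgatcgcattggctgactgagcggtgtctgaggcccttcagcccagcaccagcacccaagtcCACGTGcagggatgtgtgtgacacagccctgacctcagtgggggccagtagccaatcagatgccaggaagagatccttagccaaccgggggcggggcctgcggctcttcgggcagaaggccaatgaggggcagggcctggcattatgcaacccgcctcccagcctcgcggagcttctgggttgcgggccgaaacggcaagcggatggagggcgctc
CACGTG, which reads the same on both strands, was present in 7.15% of promoter windows.

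Per2 (ENSMUSG00000055866, chromosome 1, 91415982 to 91459324, minus strand) was the scarcest Period gene per kilobase. It averaged 70.3 ± 29.7 normalized counts in KO MPP2 and 133 ± 115 in WT MPP2, where 1 library of 265 set the mean. It averaged 74.1 ± 37.9 in KO MPP3 and 43.8 ± 30.9 in WT MPP3 (n = 3 and 4), and 118 ± 67.9 in KO LT-HSC and 131 ± 18.3 in WT LT-HSC. MPP3 had the lowest mean of the 3 populations, 56.8 ± 34.9, against 125 ± 41.9 in LT-HSC (SD, n = 7 each). That log2 fold change of -1.24 (SE 0.48) did not pass (limma adjusted p = 0.154). Within a run and genotype MPP3 was lower in 5 of 5 comparisons, as it was for Per1 and Cry2, which did not pass either.

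Per3 (ENSMUSG00000028957, chromosome 4, 151003652 to 151044665, minus strand), the Period gene largely dispensable for rhythms in mice, averaged 483 ± 413 in KO MPP2 and 366 ± 114 in WT MPP2. The large SD came from KO MPP2 replicate 3, with 959.9 beside 228 and 262 in the other KO MPP2 libraries. In LT-HSC it had 308, 343 and 385 in KO and 401, 512, 576 and 468 in WT libraries. All 3 KO LT-HSC libraries lay below all 4 WT libraries, but the log2 fold change of -0.50 (SE 0.43) was close to its standard error (limma adjusted p = 1). The same state, KO and WT not overlapping, held for 5.0% of all genes. In MPP3 Per3 averaged 344 ± 93.4 in KO and 360.4 ± 155 in WT.

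The Per3 promoter is shown for its pair of D-boxes, the element that DBP binds. The window lies at chr4:151044616-151044915 (RefSeq, GRCm38.p6, minus strand), and capitals mark TTATGTAA at bases 46 to 53 and 93 to 100.
Per3: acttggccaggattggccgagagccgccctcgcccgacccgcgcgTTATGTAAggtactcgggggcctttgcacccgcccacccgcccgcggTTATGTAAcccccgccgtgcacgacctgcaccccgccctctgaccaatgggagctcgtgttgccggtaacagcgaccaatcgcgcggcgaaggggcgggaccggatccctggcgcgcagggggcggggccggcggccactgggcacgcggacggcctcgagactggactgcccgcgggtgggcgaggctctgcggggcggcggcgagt
TTATGTAA or its reverse TTACATAA was present in 0.938% of promoter windows. Per3 and Dbp lay on the same side of their group means in 12 of 20 libraries, and KO MPP2 replicate 3 had the highest Per3 of all 20 libraries and 0 reads of Dbp.

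Cry1 (ENSMUSG00000020038, chromosome 10, 85131700 to 85185064, minus strand), the strong repressor of CLOCK and ARNTL, gave the clearest separation of KO and WT. It had 729, 505 and 468 normalized counts in KO LT-HSC, against 282, 312, 157 and 223 in WT LT-HSC, so that every KO library lay above every WT library. The means were 567 ± 141 (SD, n = 3) and 244 ± 68.6 (SD, n = 4). The log2 fold change was 1.24 (SE 0.34), a fold of 2.35 with a 95% interval of 0.51 to 1.96 on the log2 scale and an unadjusted p of 0.00213 by limma. Over 17160 genes it did not pass (adjusted p = 1). Across 30 alternatives the log2 fold change was 1.04 to 1.37 and the adjusted p 0.221 to 1, with no pass, and it was 1.21 without WT LT-HSC replicate 4, which lacked Hopx reads.

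Within runs the 2 comparisons in LT-HSC gave log2 differences of 0.58 and 1.10, KO over WT. Their direction was fixed, since every KO LT-HSC library lay above every WT one, so they add no support. In MPP2 Cry1 had 291, 566 and 912 in KO and 551, 447 and 430.0 in WT libraries, and in MPP3 it had 325, 307 and 439 in KO and 441, 416, 292 and 514 in WT. There KO and WT overlapped, with log2 fold changes of 0.17 (SE 0.37) in MPP2, which was -0.22 without KO MPP2 replicate 3, and -0.21 (SE 0.34) in MPP3. An interaction test of genotype by population gave F = 4.72 for Cry1, an unadjusted p of 0.0228 and an adjusted p of 0.9999. The 7 mature neutrophil markers summed to a lowest, median and highest value of 56.2, 265 and 25434 in KO LT-HSC, against 104, 357 and 17042 in WT LT-HSC. Their part in the Cry1 values was not tested.

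The Cry1 promoter is shown because it holds both kinds of E-box element, at chr10:85185005-85185304 (RefSeq, GRCm38.p6, minus strand). Capitals mark CACGTG at bases 191 to 196 and AACGTG, the reverse of the variant CACGTT, at bases 172 to 177.
Cry1: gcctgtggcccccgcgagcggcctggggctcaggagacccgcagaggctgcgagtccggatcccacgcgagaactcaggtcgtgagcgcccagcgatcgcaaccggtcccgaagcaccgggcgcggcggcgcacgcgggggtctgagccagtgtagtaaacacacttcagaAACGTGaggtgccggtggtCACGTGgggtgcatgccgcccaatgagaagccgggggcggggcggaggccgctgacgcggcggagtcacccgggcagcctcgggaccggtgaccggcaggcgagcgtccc
CACGTT or its reverse was present in 4.68% of promoter windows. Cry2 and Nr1d1 held this variant too, and 6 of the 9 clock genes with a RefSeq window held at least 1 of the 4 motifs searched on both strands, beside 16.5% of 27025 genes. Counted by window it was 6 of their 13, beside 14.6% of all windows. The 4 motifs are known elements of clock genes, so a higher share among these genes follows from that choice and is a description.

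Cry2 (ENSMUSG00000068742, chromosome 2, 92403646 to 92434043, minus strand), the second cryptochrome, was among the steadier genes. It averaged 259 ± 60.6 in KO MPP2 and 224 ± 125 in WT MPP2, 211 ± 46.0 in KO MPP3 and 188 ± 18.3 in WT MPP3, and 296 ± 127 in KO LT-HSC and 259 ± 127 in WT LT-HSC. Its log2 fold changes between KO and WT were 0.33 (SE 0.48), 0.16 (SE 0.45) and 0.24 (SE 0.45) in MPP2, MPP3 and LT-HSC, and each changed sign when 1 library was left out. It shares 295 exon bases with D930015M05Rik on the opposite strand, and because no source used here says whether counting used strand, reads of the 2 genes cannot be told apart there.

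Of the Rev-erb receptors, which repress Arntl, Nr1d1 (ENSMUSG00000020889, chromosome 11, 98767932 to 98775333, minus strand) had 45.7, 82.6 and 0 normalized counts in KO MPP2 and 10.5, 94.1 and 35.4 in WT MPP2. It had 77.7, 112 and 83.6 in KO MPP3 and 189.6, 90.5, 52.6 and 157 in WT MPP3. It had 75.1, 79.1 and 139.8 in KO LT-HSC and 104, 164, 139 and 235 in WT LT-HSC. The 0 in KO MPP2 replicate 3 allows a level of up to 2.95 normalized counts, by a limit of 3 reads that covers counting error only. Nr1d1 shares 263 exon bases with Thra on the opposite strand, and Thra had 191 normalized counts in that library.

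Nr1d1 averaged 44.7 ± 37.8 in MPP2 (SD, n = 6), against 134 ± 55.5 in LT-HSC (SD, n = 7), and MPP2 was lower in 5 of 5 comparisons within a run and genotype. The log2 fold change of -2.39 (SE 0.79) did not pass (limma adjusted p = 0.0767). It passed in 3 of 30 alternatives, with a pseudocount of 16 (-1.47, adjusted p = 0.0356), without KO MPP2 replicate 1 (-2.78, adjusted p = 0.0497) and without KO MPP2 replicate 2 (-2.99, adjusted p = 0.0205). Without KO MPP2 replicate 3 it was -1.39 (adjusted p = 0.0973). Against MPP3, where Nr1d1 averaged 109 ± 48.2 (n = 7), the log2 fold change was -2.11 (SE 0.79, adjusted p = 0.132). It passed only without KO MPP2 replicate 2 (-2.71, adjusted p = 0.0346), and was -1.12 without KO MPP2 replicate 3 (adjusted p = 0.213). Arntl, which NR1D1 represses, had its lowest mean in the same population.

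Nr1d2 (ENSMUSG00000021775, chromosome 14, 18204054 to 18239127, minus strand), the second Rev-erb gene, had nearly equal population means of 379 ± 257 in MPP2 (SD, n = 6), 379.8 ± 196 in MPP3 and 379 ± 160.0 in LT-HSC (SD, n = 7 each). Its libraries ranged from 180.1 in WT MPP2 replicate 2 to 889 in KO MPP2 replicate 3. In MPP2 it averaged 499.7 ± 339 in KO and 259 ± 84.7 in WT (log2 fold change 0.80, SE 0.51), and in MPP3 262 ± 22.0 in KO and 468 ± 229 in WT (-0.71, SE 0.47). Neither passed (limma adjusted p = 0.755 and 1), and the MPP2 value was 0.28 without KO MPP2 replicate 3.

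Dbp (ENSMUSG00000059824, chromosome 7, 45705088 to 45710203, plus strand), an output gene of CLOCK and ARNTL, had 169.5, 129.7 and 0 normalized counts in KO MPP2 and 110.1, 206 and 214 in WT MPP2. It had 347, 218 and 148 in KO MPP3 and 252, 313, 415 and 223 in WT MPP3. It had 355, 307 and 288 in KO LT-HSC and 130.1, 367, 355 and 264 in WT LT-HSC. KO MPP2 replicate 3 again had 0 reads, with the same limit of 2.95, while Sphk2, which shares 539 exon bases on the opposite strand, had 167. The log2 fold change of KO over WT in MPP2 was -2.60 (SE 1.23, limma adjusted p = 0.629) and came to -0.19 without that library, so its size rests on KO MPP2 replicate 3.

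Against LT-HSC, where Dbp averaged 295 ± 82.4 (SD, n = 7), MPP2 had 138 ± 79.1 (SD, n = 6), a log2 fold change of -2.05 (SE 0.84) that did not pass (adjusted p = 0.153). MPP2 was lower in 5 of 5 comparisons within a run and genotype, by -1.14 to -0.24. It passed in 1 of 30 alternatives, without KO MPP2 replicate 1 (-2.70, adjusted p = 0.0485), and was -0.85 without KO MPP2 replicate 3.

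Over all 10 genes, no clock gene was called between KO and WT. In LT-HSC 0 of 10 passed, beside 0.00583% of all genes, and in MPP2 0 of 10 beside 0.0117%. In MPP3 0 of 10 passed beside 0.00583%, and for the mean of the 3 populations 0 of 10 beside 0.0117%. At an unadjusted p under 0.05, 1 of 10 passed in MPP2 (Dbp, beside 7.88% of all genes), 0 in MPP3 (2.02%), 1 in LT-HSC (Cry1, beside 2.66%) and 0 for the mean (5.03%). None of the 10 was called by limma, edgeR or DESeq2 in these comparisons or in any other alternative.

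The direction was mixed. KO was higher for 5 genes and lower for 5 in MPP2, 5 and 5 in MPP3, and 4 and 6 in LT-HSC, with median log2 fold changes of -0.03, -0.10 and -0.11 beside -0.10, 0.03 and -0.03 over all genes. In 30 alternatives KO was higher for 3 to 7, 2 to 5 and 2 to 6 genes in these populations. KO and WT did not overlap for 2 genes in LT-HSC, Cry1 and Per3, beside 5.0% of all genes. They overlapped for all 10 genes in MPP2 and MPP3, where 5.93% and 3.93% of all genes did not overlap. The intervals remain wide, for example -0.93 to 0.52 for Cry1 in MPP3 and -3.56 to 1.32 for Nr1d1 in MPP2, where the log2 fold change was 0.87 without KO MPP2 replicate 3. For the mean of the 3 populations the lowest estimate was -0.90, for Dbp, and came to -0.097 without KO MPP2 replicate 3. The highest was 0.40, for Cry1, and came to 0.27 without that library. The KO effect was not called different between populations for any of the 10, beside 0.0% of all genes, and at an unadjusted p under 0.05 it was for 1, Cry1, beside 3.07%.

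**Figure D4:**
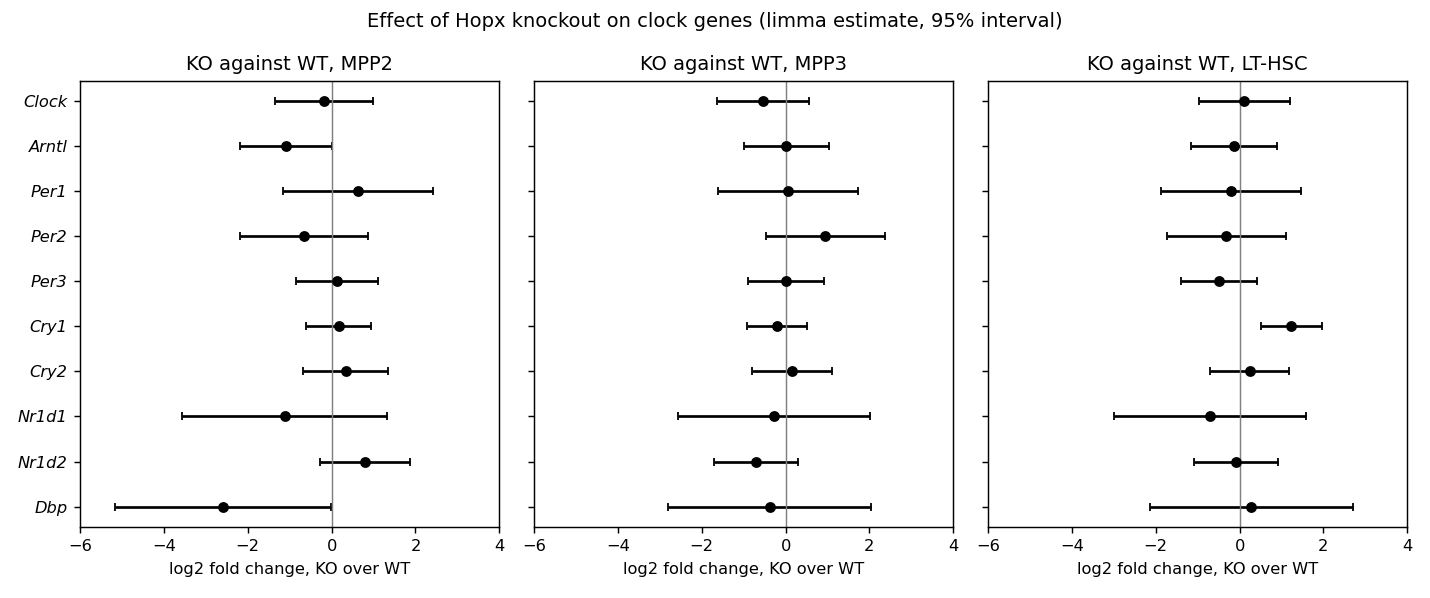
Points are limma log2 fold changes of KO over WT on the horizontal axis and lines their 95% intervals, for the 10 genes in MPP2, MPP3 and LT-HSC. The interval of Cry1 in LT-HSC (0.51 to 1.96) and that of Dbp in MPP2 (-5.18 to -0.02) lie clear of 0 before adjustment, and neither gene passed after it.

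Between populations, 9 of 10 clock genes had a lower estimate in MPP2 than in LT-HSC, though 0 of 10 passed, beside 7.32% of all genes. The 10 had a median log2 fold change of -0.73 beside -0.11 over all genes. In 30 alternatives 7 to 9 clock genes had a lower estimate, with medians of -0.89 to -0.37. The share of all genes with a lower estimate was not counted. Genes with at least 1 read numbered 14931 to 18161 in KO MPP2 and 17021 to 18469 in WT MPP2 libraries. In KO and WT LT-HSC libraries they numbered 17609 to 18627 and 18151 to 19596, and the part of this in the estimates was not tested. At an unadjusted p under 0.05 there were 4 clock genes, Arntl, Clock, Nr1d1 and Dbp, beside 22.8% of all genes. Cry1 was the exception, at 0.47 (SE 0.25, limma adjusted p = 0.282). Per1 had -1.02 (SE 0.58, adjusted p = 0.310) and was lower in MPP2 in 5 of 5 comparisons within a run and genotype. Those log2 differences were -1.93 to -0.02. KO MPP2 replicate 3, with the highest Per1 of MPP2 (467), entered none of them, since its run holds no KO LT-HSC library. In MPP3 against LT-HSC 0 of 10 passed, beside 7.4% of all genes, with a median of -0.28, and 1, Per2, had an unadjusted p under 0.05, beside 17.9%. No clock gene's libraries were fully apart between 2 populations, a state that 2.6% of genes reached for MPP2 against LT-HSC, 4.66% for MPP3 against LT-HSC and 2.41% for MPP2 against MPP3.

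Library by library, the 10 genes did not rise and fall as one. After group means were removed, 2 genes lay on the same side of their group mean in 5 to 16 of 20 libraries over the 45 pairs, with a median of 9. The fewest, 5, were for Per1 and Nr1d1. No library had more than 8 of the 10 genes on one side, and the 2 that had 8, KO MPP2 replicate 3 and WT MPP3 replicate 2, had them above. In the 3 libraries numbered 52 to 54, all WT, Arntl, Per3, Nr1d2 and Dbp each lay above the group mean in 3 of 3 and Per1 in 0 of 3. In the 6 libraries of 115 to 120 Nr1d1 lay above in 6 of 6 and Per1 in 0 of 6.

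**Figure D5:**
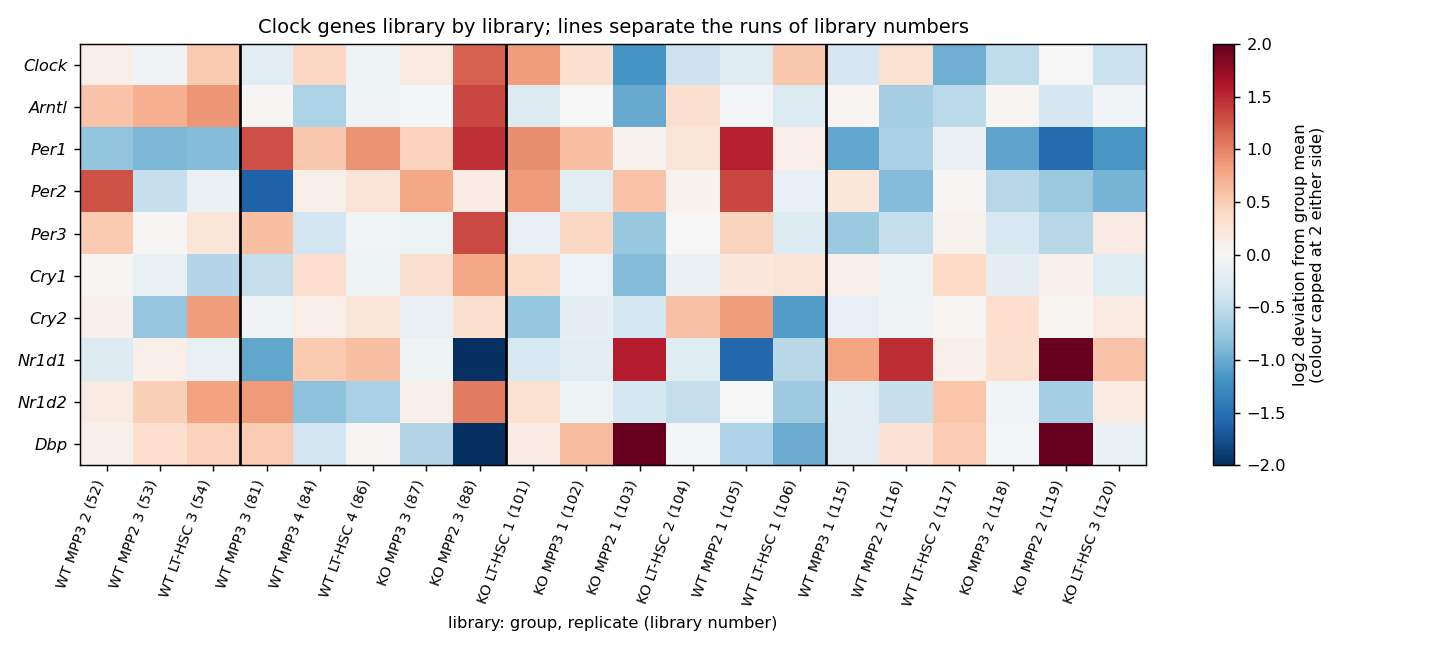
Colours give the log2 deviation of each clock gene (rows) from its group mean in each library (columns, ordered by library number), with lines between the runs. Per1 is red in all columns of 81 to 88 and 101 to 106 and blue in all others. Nr1d1 and Dbp are darkest blue in KO MPP2 replicate 3.

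A contrast between genes that peak at different hours in mouse tissues was also taken, as the mean log2 level of Dbp, Nr1d1, Nr1d2 and Per3 minus that of Arntl. By run it averaged -0.85 ± 0.19 in 52 to 54 (SD, n = 3), -0.89 ± 1.28 in 81 to 88 (n = 5), -0.18 ± 0.95 in 101 to 106 (n = 6) and 0.11 ± 0.76 in 115 to 120 (n = 6). Single libraries spanned -3.09 in KO MPP2 replicate 3 to 1.62 in KO MPP2 replicate 1, both in 1 group. KO MPP2 replicate 3 belongs to 81 to 88 and had 0 reads of Nr1d1 and Dbp, so its value depends on the pseudocount. The other libraries of 81 to 88 lay at -0.95 to -0.04. By group it averaged -0.15 ± 2.57 in KO MPP2 and -0.53 ± 0.76 in WT MPP2, -0.83 ± 0.16 in KO MPP3 and -0.48 ± 0.36 in WT MPP3, and -0.21 ± 0.45 in KO LT-HSC and -0.09 ± 0.62 in WT LT-HSC. KO and WT libraries overlapped in each of the 3 populations. KO MPP2 replicates 1, 2 and 3 lay at 1.62, 1.03 and -3.09, on both sides of the WT MPP2 libraries, whose highest was 0.34. Arntl, which the contrast subtracts, had 50.5 and 80.8 normalized counts in KO MPP2 replicates 1 and 2 and 258 in replicate 3. In WT MPP2 it had 136 to 354. A difference of KO from WT in this contrast was not tested.

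Of a list of 23 other clock genes, 21 were tested, and most did not pass between populations. Against LT-HSC, MPP2 had lower Rora and Hlf, 2 of 21 beside 5.08% of all genes, and higher Timeless, 1 of 21 beside 2.24%. Rora encodes a receptor that activates Arntl at the elements where the Rev-erbs repress it. Rora averaged 2.66 ± 4.61 normalized counts in KO MPP2 and 59.5 ± 68.7 in WT MPP2, against 283 ± 170.1 in KO LT-HSC and 255 ± 185 in WT LT-HSC (limma log2 fold change -5.04, SE 1.02, adjusted p = 0.00761). Hlf, a PAR bZIP relative of Dbp and a stem cell gene, had a log2 fold change of -2.30 (adjusted p = 0.0119), and Timeless one of 0.77 (adjusted p = 0.0218). These calls passed in 29 (Rora and Hlf) and 25 (Timeless) of 30 alternatives.

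In MPP3 against LT-HSC, Bhlhe41 was lower, 1 of 21 beside 4.18% of all genes, and Nfil3, which represses D-box genes, was higher, 1 of 21 beside 3.22%. They had adjusted p of 0.00795 and 0.0278 by limma. Bhlhe41 was near the floor, with mean normalized counts of 0.350 in KO MPP3 and 0 in WT MPP3. Its means were 3.85 and 14.6 in KO and WT MPP2, and 8.93 and 5.67 in KO and WT LT-HSC. Over alternatives its log2 fold change was -4.95 to -0.51 in MPP3 against LT-HSC and 0.57 to 5.21 in MPP2 against MPP3. Where MPP2 is set against MPP3, 4.64% of all genes were called lower and 2.24% higher. In MPP2 against MPP3, Rora was lower (-3.67, SE 1.02, adjusted p = 0.0377), beside the lower Arntl, and Bhlhe41 was higher (2.34, adjusted p = 0.0331). The call of Rora there passed in 15 of 30 alternatives, those of Bhlhe41 there and of Nfil3 in 18, and that of Bhlhe41 against LT-HSC in 28. With the run of library numbers as a covariate, Nfil3 did not pass (adjusted p = 0.0779, in a range of 0.00512 to 0.308 over alternatives). Nor did Bhlhe41 in MPP2 against MPP3 (adjusted p = 0.0540, in a range of 0.0134 to 0.0973). Between KO and WT 0 of 21 passed in each population, beside 0.0117% of all genes in MPP2 and 0.00583% in MPP3 and in LT-HSC. The smallest p there in LT-HSC was that of Npas2, a relative of Clock, with 51.5 ± 58.4 in KO and 0.229 ± 0.458 in WT (adjusted p = 1). Between runs of library numbers 1 of 21 passed, beside 2.75% of all genes: Gsk3b (F = 9.73, adjusted p = 0.0404), a call that passed in 9 of 29 alternatives.

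Of 15 immediate early genes, 6 were lower in MPP2 than in LT-HSC, among them Nr4a1 and Egr1, beside 5.08% of all genes. Against MPP3, 1 of 15, Zfp36, was lower in MPP2, beside 4.64%. Of 8 glucocorticoid targets, 3 (Sgk1, Tsc22d3 and Klf9) were lower in MPP2 than in LT-HSC, beside 5.08%, and 1 (Klf9) in MPP3, beside 4.18%. In alternatives the lower Nr4a1 passed in 29 of 30, Egr1 in 12, Zfp36 in 25, Sgk1 in 20, Tsc22d3 in 30, and Klf9 in 13 for MPP2 and 30 for MPP3. Between KO and WT, 0 of 15 and 0 of 8 passed in each population. Their part in the levels of Per1, a gene that both signals and glucocorticoids are known to induce, was not tested.

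Genes that varied most like each clock gene were named by the Pearson correlation over 20 libraries with group means removed, among 12077 genes. They are descriptions, since the libraries share runs and depth. Per1 was most like Usp19 (r = 0.97), Mark2 (0.95) and Mir6236 (0.94), values that held without KO MPP2 replicate 3 (0.97, 0.94 and 0.95). Arntl was most like Kmt2e (0.93), Pcmtd1 (0.92) and Vamp4 (0.89), and without that library 0.87, 0.85 and 0.78. Cry1 was most like Cdc73 (0.86), Clock like Stk17b (0.86), Per2 like Acsf3 (0.85), Cry2 like Nmnat1 (0.82), Per3 like Cep41 (0.89) and Nr1d2 like Tusc3 (0.91). For Dbp the highest was Cd320 (0.98) and for Nr1d1 Naf1 (0.93), which came to 0.71 and 0.81 without KO MPP2 replicate 3. None of the 10 clock genes was among the 3 genes most like another.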

How the data were processed

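Per the submitters' processing notes, TopHat2 2.1.1, HTSeq 0.11.2 and DESeq (version not given) were used with the GRCm38 build. Neither annotation release, strand setting nor filters are stated there. What the authors deposited is a normalized signal: a count over its library's size factor, from which whole reads were recovered for the count tests. The 5 HTSeq summary entries were left out. Reads in no gene made up 22.9 to 26.7% of entries, and alignments that were not unique 52.6 to 57.8%. Reads in genes made up 18.5 to 21.4%.

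Symbols, exon lengths and coordinates came from GENCODE M21 (GRCm38), where 45143 of 45706 identifiers matched. Log2(value + 1) was tested by limma 3.58.1 (R 4.3.3, trend and robust options) with means of 6 groups in 20 libraries, on the 17160 genes that edgeR's filterByExpr kept. A Benjamini-Hochberg adjusted p under 0.05 was called, and fold changes on this scale understate low genes. The fits were tested on simulated data. Alternatives were edgeR 4.0.16 on recovered reads of 20 libraries, or of 18 (without WT MPP3 replicate 1 and WT MPP2 replicate 2, where 1 read is worth nearly 1), DESeq2 1.42.0, voom, TMM, pseudocounts of 16 and 0.5, no filter, the run of library numbers as a covariate, and leaving out libraries. Replicate numbers follow accession order. All 10 clock genes are named in every comparison; of each other list the passing genes and up to 4 of smallest p could be named, and per clock gene the 3 most alike genes. One gene of the list of other clock genes is not reported here. The members and lists were chosen with earlier results of these data known.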

Additional observations from a re-analysis of the deposited data

How the results depend on the processing

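No clock gene was called between KO and WT in any alternative. Some KO against WT estimates that had not passed changed sign. Leaving out single libraries gave -0.22 (without KO MPP2 replicate 3) to 0.60 for Cry1 in MPP2, -0.052 (without WT MPP2 replicate 3) to 0.75 for Cry2 in MPP2, -0.016 (without KO MPP3 replicate 2) to 0.25 for Cry2 in MPP3, and -0.13 (without WT LT-HSC replicate 1) to 0.63 for Cry2 in LT-HSC, which was -0.049 without KO LT-HSC replicate 2. For Nr1d1 in MPP2 it gave -2.32 to 0.87 (without KO MPP2 replicate 3), and edgeR on 18 libraries gave 0.92. Without the libraries numbered 52 to 54 Cry2 in MPP2 was also -0.052. In MPP2 against LT-HSC, where 0 clock genes were called, a pseudocount of 16 gave 1 (Nr1d1), the library-number covariate 1 (Arntl), and leaving out single libraries 0 to 2. In MPP2 against MPP3, where 1 was called, the fit with no filter and edgeR on 20 or 18 libraries gave 0, and leaving out single libraries 0 to 1. The 1 there without KO MPP2 replicate 2 was Nr1d1, not Arntl. Between runs of library numbers, where 1 was called, edgeR on 18 libraries and the fit without the libraries numbered 52 to 54 gave 0. The causes were not tested. With TMM scaling the Arntl mean in KO MPP3 was 379, beside 367.

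No paired analysis was possible because the labels pair no libraries by replicate number or animal. The run of library numbers, which groups share in part, was fitted as a covariate instead. With 3 or 4 libraries per group the 95% intervals are wide, and a library with 0 reads decides the fold changes of Nr1d1 and Dbp in MPP2. The labels give no hour of sacrifice, so hour, run of library numbers and handling cannot be told apart.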
